A study of Mus musculus with 18 samples.

Results

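*Slc22a3*, *Slc22a4*, *Slc22a5*, *Slc22a18*, *Slc22a21* and *Slc22a23* are 6 genes of the Slc22 family of membrane carriers, taken from the 55487 genes counted in whole-thickness ileum of IEC-*Ppara* mice. They were chosen by symbol, with their levels in these libraries and their differences between the genotypes already known, and no threshold was given for the choice. The genotype comparisons are therefore a description of these 6 genes and no independent evidence that they respond. Of 25 counted genes named *Slc22a* with a number, 9 passed the expression filter of more than 3 CPM, the count scaled to library size, in at least 4 libraries. All 6 chosen genes were among them.

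The study sequenced ileum of 18 C57BL6/J mice of both sexes on chow, 8 to 13 weeks of age, with 1 library per mouse. All carried CAG-*Ppara*,-*EGFP*, a tagged *Ppara* with EGFP under the ubiquitous CAG promoter in the *Col1a1* safe harbor, which Cre must invert before it is expressed. The 6 controls lacked *Villin-CreERT2*. The IEC-*Ppara* mice carried *Villin-CreERT2*, whose promoter limits recombination to intestinal epithelium, and were heterozygous (6 mice) or homozygous (6 mice) for the transgene. Every mouse, controls included, received tamoxifen at 100 mg/kg intraperitoneally on 3 days and was collected 2 weeks later. Of the controls 3 were female, and of each IEC-*Ppara* group 2 were female.

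Slc22 proteins move small charged molecules across the plasma membrane. OCTN2, the product of *Slc22a5*, takes up carnitine with sodium at the brush border of enterocytes, and carnitine is what long-chain fatty acids must be joined to before they enter mitochondria. Loss of this carrier causes systemic carnitine deficiency in mice and humans. OCTN1 (*Slc22a4*) carries ergothioneine and organic cations, and *Slc22a21* encodes OCTN3, a carnitine carrier of rodents. OCT3 (*Slc22a3*) is a facilitative carrier of monoamines and other organic cations. *Slc22a18* and *Slc22a23* encode carriers whose substrates are not established. PPARα, the receptor encoded by *Ppara*, pairs with RXR on direct repeats of AGGTCA spaced by 1 base (DR1) and drives genes of fatty acid oxidation, and *Slc22a5* is among its known targets.

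In the positions of the count files (build GRCm38), 3 members lie side by side on the minus strand of chromosome 11. *Slc22a5* (ENSMUSG00000018900) spans chr11:53864542-53891660, *Slc22a21* (ENSMUSG00000063652) chr11:53949965-53980332 and *Slc22a4* (ENSMUSG00000020334) chr11:53983123-54028090. The gap between *Slc22a5* and *Slc22a21* is 58304 bases, and the gap between *Slc22a21* and *Slc22a4* is 2790 bases. *Slc22a3* (ENSMUSG00000023828) lies on the minus strand at chr17:12418960-12507704, near the imprinted gene *Igf2r*. *Slc22a18* (ENSMUSG00000000154) lies on the plus strand at chr7:143473736-143499334 in the imprinted *Kcnq1* domain, and *Slc22a23* (ENSMUSG00000038267) on the minus strand at chr13:34179158-34345182.

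The promoters of *Slc22a3* and *Slc22a5*, the members with the highest levels relative to controls, and of *Slc22a4*, which lies near *Slc22a5* and was not called, are shown because all 3 were read for the DR1 letters (RefSeq, GRCm38.p6, 250 bases before to 50 after the start, minus strand, 5′ to 3′). Capitals mark the stretch that matches AGGTCANAGGTCA best on either strand, leaving the N free.
Slc22a3, chr17:12507655-12507954: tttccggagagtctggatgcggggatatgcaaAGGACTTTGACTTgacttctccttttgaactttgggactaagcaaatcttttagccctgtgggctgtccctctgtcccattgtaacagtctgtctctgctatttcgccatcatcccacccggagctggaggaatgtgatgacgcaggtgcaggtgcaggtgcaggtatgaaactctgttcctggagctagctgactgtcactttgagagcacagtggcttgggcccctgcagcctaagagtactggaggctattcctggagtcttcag
Slc22a5, chr11:53891654-53891953: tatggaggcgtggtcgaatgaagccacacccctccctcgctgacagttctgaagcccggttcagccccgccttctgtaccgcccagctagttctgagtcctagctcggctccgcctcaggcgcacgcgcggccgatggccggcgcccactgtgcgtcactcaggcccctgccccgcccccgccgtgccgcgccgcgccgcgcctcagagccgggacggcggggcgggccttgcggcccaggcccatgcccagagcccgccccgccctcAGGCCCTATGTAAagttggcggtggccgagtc
Slc22a4, chr11:54028055-54028354: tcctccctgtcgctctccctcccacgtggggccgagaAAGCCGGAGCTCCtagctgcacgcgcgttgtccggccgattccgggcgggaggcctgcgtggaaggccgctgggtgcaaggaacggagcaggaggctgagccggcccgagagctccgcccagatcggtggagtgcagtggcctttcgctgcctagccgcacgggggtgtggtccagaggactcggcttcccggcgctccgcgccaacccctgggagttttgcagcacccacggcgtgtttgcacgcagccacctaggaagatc
The best stretch matched 8 of 12 letters in *Slc22a3* and in *Slc22a5* and 7 of 12 in *Slc22a4*. RefSeq promoters were on hand for 5 of the 6 members, without *Slc22a21*, and the best match in *Slc22a18* and *Slc22a23* was 8 of 12 letters as well. A match with at most 4 mismatches is held by 79.8% of all 32851 promoters of the table, so the matches of the other 4 are at the level of most promoters, and the best stretch of *Slc22a4*, with 5 mismatches, falls short of that level. None of the 5 promoters holds AGGTCA itself on either strand, which 16.3% of all promoters do. These windows cover the start region and neither introns nor distant regions. GC content was 72.7% for *Slc22a5*, 69.0% for *Slc22a4* and 52.0% for *Slc22a3*, with a median of 52.7% over all promoters.

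The libraries held 38528522 to 50376371 reads counted on genes, and 12645 protein-coding genes passed the filter. *Ppara*, the check of the labels, stood at 25.8 to 47.4 CPM in controls, 107 to 196 in heterozygous and 184 to 279 in homozygous libraries. On average, markers of enterocytes and of smooth muscle were abundant in every library, as whole-thickness tissue holds both. The mean log2 CPM of 10 enterocyte markers, 9 of them above the filter, ran from 9.01 to 9.89. That of 10 smooth muscle markers ran from 5.01 to 8.80. The score of 8 B cell markers ranged from 0.47 to 5.97 in controls, -0.13 to 5.12 in heterozygous and -0.15 to 3.30 in homozygous libraries, and it was above 3 in control replicates 2 and 3, heterozygous replicate 2 and homozygous replicate 1. In such mixed tissue, fewer cells of a type and less RNA per cell cannot be told apart.

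Per kilobase of gene length, *Slc22a18* was the most abundant family member in ileum, at 46.4 ± 3.88 CPM per kilobase (mean ± SD, n = 18 libraries). *Slc22a5* was next at 33.5 ± 6.56 CPM per kilobase. *Slc22a23* stood at 19.8 ± 2.08 CPM per kilobase. *Slc22a4* reached 11.1 ± 1.93 and *Slc22a21* 6.07 ± 0.58 CPM per kilobase. *Slc22a17*, which is no member, at 2.65 ± 1.06, and *Slc22a3*, at 1.67 ± 0.68, were neighbours in this order whose spreads overlap, and *Slc22a15* was lowest of the 9 at 0.82 ± 0.08 CPM per kilobase. The other 16 family genes did not exceed 0.41 CPM in any library, and 1 of them had no count at all. *Slc22a3* was thus the scarcest member, with no more than 292 reads in any control library and 563 in any library, and *Slc22a23* had 3692 to 6734. It was also the most variable, with a highest library at 4.67 times its lowest. That ratio was 1.88 for *Slc22a5*, 1.76 for *Slc22a4*, 1.48 for *Slc22a23*, 1.38 for *Slc22a21* and 1.34 for *Slc22a18*.

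**Figure D1:**
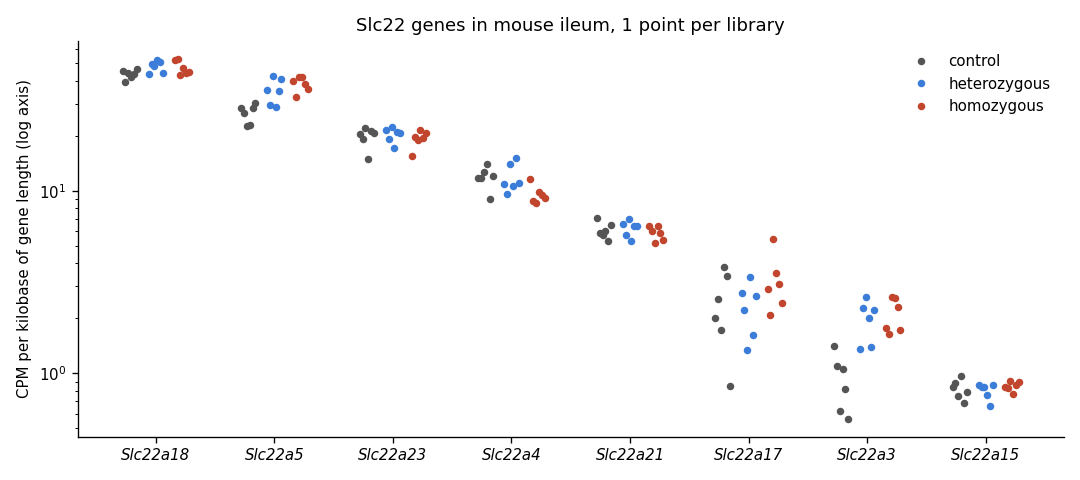
CPM per kilobase of gene length (log axis) of the 6 members and of *Slc22a17* and *Slc22a15*, 1 point per library, coloured by genotype. *Slc22a18* and *Slc22a5* lie highest, and the control points of *Slc22a3* lie mostly below those of the IEC-*Ppara* groups.

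*Slc22a3* and *Slc22a5* were higher in homozygous IEC-*Ppara* ileum than in controls. *Slc22a3* was at 2.28 times the control level (95% confidence interval 1.68 to 3.10) and *Slc22a5* at 1.45 times (1.23 to 1.69). *Slc22a4*, the ergothioneine carrier, was at 0.81 times and was not called. The 3 other members lay within 1.09 times of the control level or closer.

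For *Slc22a3*, the lowest, median and highest libraries were at 2.54, 4.24 and 6.34 CPM in controls and at 7.36, 9.22 and 11.9 CPM in homozygous mice. Every homozygous library lay above every control, a separation that 0.593% of the 12645 genes shared in this direction. By edgeR's quasi-likelihood test over all 12645 genes, the log2 fold change was 1.19 (SE 0.21, adjusted p = 0.00759). It ranked 35th by p and 43rd by size of increase among the genes tested.

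For *Slc22a5*, the lowest, median and highest libraries were at 69.4, 84.5 and 93.2 CPM in controls and at 100.04, 119.9 and 129.4 CPM in homozygous mice. Here too every homozygous library lay above every control, although the closest pair, at 93.2 and 100.04 CPM, lay near each other. The log2 fold change was 0.53 (SE 0.11, edgeR, adjusted p = 0.0294), rank 48 by p and 432 by size. The genes next to it in the order of edgeR's p were *Gimd1*, with a log2 fold change of -2.78 (SE 0.57), and *Sh3d21*, with 0.54 (SE 0.11).

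*Slc22a4* ran from 23.1 through 30.4 to 35.7 CPM in controls and from 21.9 through 23.9 to 29.6 CPM in homozygous mice, so the groups overlapped. Its log2 fold change was -0.31 (SE 0.13, unadjusted p = 0.0264 and adjusted p = 0.568 by edgeR). *Slc22a21* ran from 19.3 to 25.9 CPM in controls and 18.8 to 23.5 CPM in homozygous mice, with a median of 21.7 CPM in both groups and a log2 fold change of -0.05 (SE 0.10). *Slc22a23* ran from 95.8 through 131 to 140.2 CPM in controls and 99.0 through 125 to 138 CPM in homozygous mice, with a log2 fold change of -0.03 (SE 0.11). For both genes most libraries of one group lay within the range of the other. *Slc22a18* ran from 72.8 through 78.0 to 90.1 CPM in homozygous mice, and its log2 fold change was 0.12 (SE 0.08). The adjusted p of these 3 was 0.731 or more.

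In all, 2 of the 6 members were called higher and 0 lower at an adjusted p under 0.05, where 0.411% of all genes were called in either direction and 0.372% were called higher. By an unadjusted p under 0.001, the threshold the study used, the calls were the same 2, against 0.72% of all genes. Since this comparison was known when the members were chosen, nothing is read from that excess. The median log2 fold change of the 6 was 0.05, beside -0.00 over all genes.

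The calls differed in how firmly they stood. That of *Slc22a3* stood with each of the 18 libraries left out in turn (adjusted p from 0.0017 to 0.0256), but without the 4 libraries of highest B cell score the adjusted p was 0.104 at a log2 fold change of 1.18. That of *Slc22a5* was lost in 9 of 18 such fits, without control replicate 2, 3, 4 or 5 or homozygous replicate 1, 3, 4, 5 or 6 (adjusted p from 0.0531 to 0.0978), with sex in the fit (0.0548), with the B cell score in the fit (0.0998) and without the 4 libraries of highest score (0.326). Its log2 fold change was 0.48 to 0.60 with 1 library left out and 0.52, 0.47 and 0.47 in the last 3 fits.

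**Figure D2:**
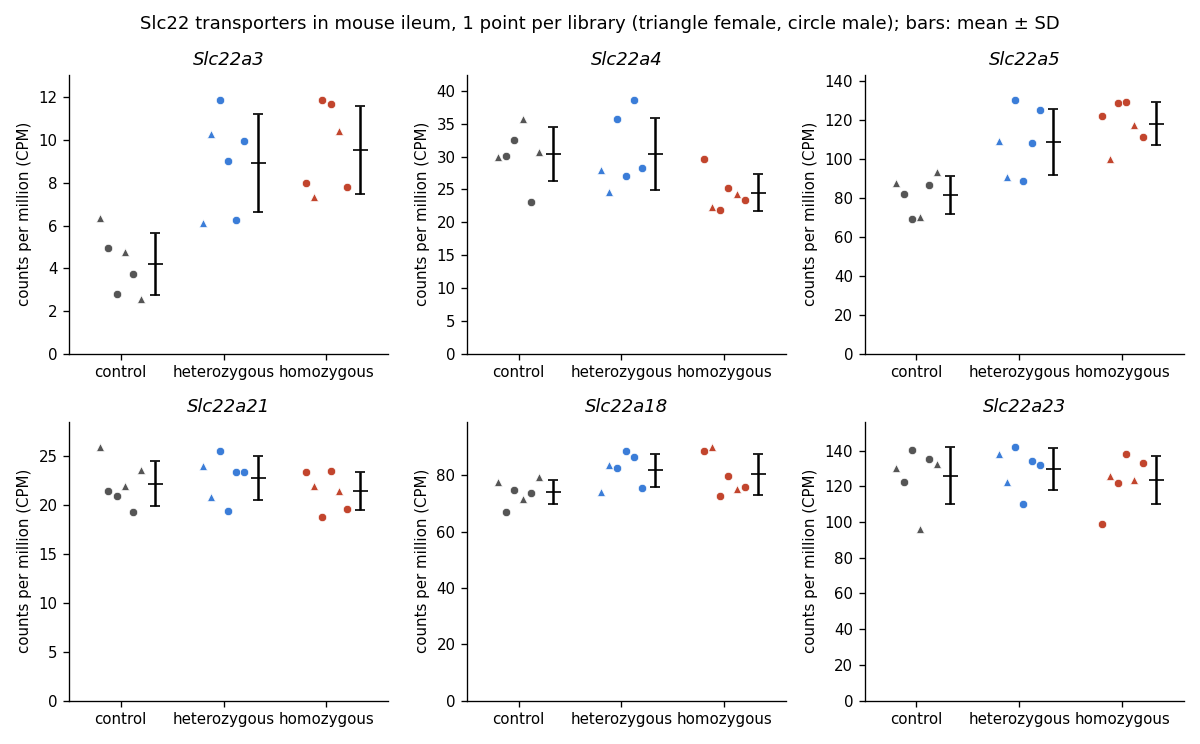
CPM of each member in each of the 18 libraries (triangles, females; circles, males), with the mean ± SD of each genotype (n = 6) beside the points. For *Slc22a3* and *Slc22a5* all homozygous points lie above all control points, and for the other members the groups overlap.

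In heterozygous mice the values of the same members were above those of controls with less separation, and edgeR called *Slc22a3* alone. *Slc22a3* was at 2.17 times the control level (95% confidence interval 1.60 to 2.95) and *Slc22a5* at 1.36 times (1.16 to 1.59). All 6 log2 fold changes were above 0, from 0.04 to 1.12, but 3 of them by less than their own SE.

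*Slc22a3* ran from 6.12 through 9.51 to 11.9 CPM in heterozygous libraries. Of these, 4 lay above every control, and replicates 1 and 5 were at or below the highest control. The log2 fold change was 1.12 (SE 0.21, edgeR, adjusted p = 0.0199). *Slc22a5* ran from 88.6 through 108.7 to 130.3 CPM, again with 4 libraries above every control. Its log2 fold change was 0.44 (SE 0.11), with an unadjusted p of 0.000705 that did not pass after adjustment (edgeR, adjusted p = 0.143).

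*Slc22a18* was at 74.3, 83.1 and 88.6 CPM in its lowest, median and highest heterozygous library, beside 67.2, 74.4 and 79.5 CPM in controls, and 4 of the 6 lay above every control. Its log2 fold change was 0.17 (SE 0.08, unadjusted p = 0.0497, adjusted p = 0.942, edgeR). *Slc22a4*, *Slc22a21* and *Slc22a23* had log2 fold changes of 0.04 (SE 0.13), 0.06 (SE 0.10) and 0.07 (SE 0.11).

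In heterozygous mice edgeR called 1 of 6 members at an adjusted p under 0.05, where 0.293% of all genes were called, all of them higher, and 2 of 6 at an unadjusted p under 0.001, where 0.554% were. Every heterozygous library above every control was seen for none of the 6 and for 0.293% of all genes. DESeq2 called *Slc22a5* as well (adjusted p = 0.0171), and so did edgeR without heterozygous replicate 4 (0.0456).

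The call of *Slc22a3* in heterozygous mice was lost without control replicate 3 or 5 or heterozygous replicate 3 or 6 (adjusted p from 0.0596 to 0.071), and the value ran from 1.02 to 1.29 over the 18 fits that each left out 1 library. Scaling to library size alone instead of TMM also lost it (0.0530), as did a fit of the 12 libraries compared (0.111) and leaving out the 4 libraries of highest B cell score (0.269).

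**Figure D3:**
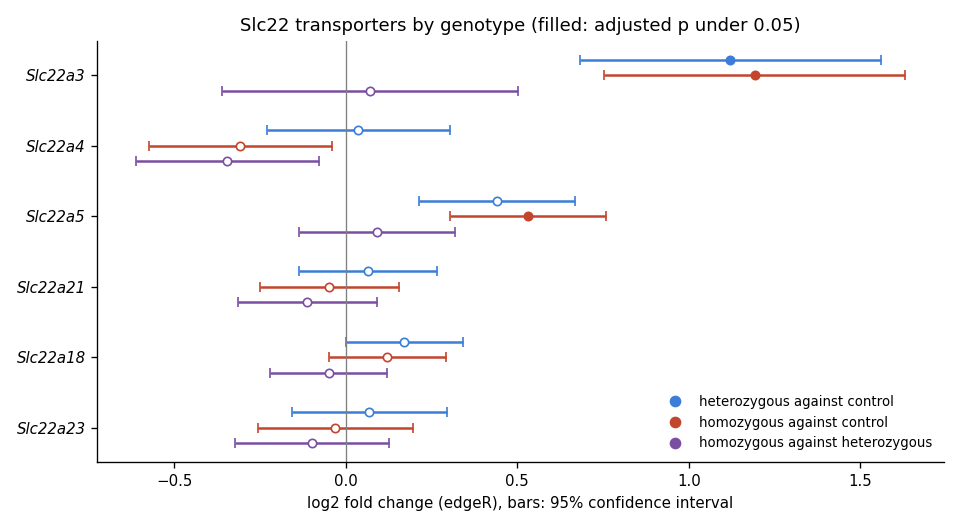
Log2 fold changes of the 6 members in the 3 genotype comparisons, with 95% confidence intervals from edgeR; filled points have an adjusted p under 0.05. The filled points are *Slc22a3* in both comparisons with controls and *Slc22a5* in homozygous mice.

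A second copy of the transgene was compared with a single copy. *Ppara* itself gave a log2 fold change of 0.59 between homozygous and heterozygous mice (SE 0.17, edgeR, unadjusted p = 0.00303, adjusted p = 0.485). For *Slc22a3* the ratio was 1.05 (95% confidence interval 0.78 to 1.42) and for *Slc22a5* 1.06 (0.91 to 1.25), intervals that both include 1. *Slc22a4* gave a log2 fold change of -0.34 (SE 0.13, edgeR, unadjusted p = 0.0143, adjusted p = 0.638), and 4 of 6 homozygous libraries lay below every heterozygous one. All 10 smooth muscle markers had higher values in homozygous than in heterozygous mice, with a median log2 fold change of 0.74. None of the 10 was called by edgeR, DESeq2 or limma-voom, with 1 at an unadjusted p under 0.05 by each tool. No member was called by edgeR, DESeq2 or limma-voom, with 1 of 6 at an unadjusted p under 0.05 by each tool, where edgeR had 7.61% of all genes. Over all genes, edgeR called 0.00791% at an adjusted p under 0.05 and 0.166% at an unadjusted p under 0.001.

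Within heterozygous libraries, *Slc22a5* and *Ppara* had Pearson's r = 0.69 and Spearman's rho = 0.43 (exact permutation over 720 pairings, p = 0.147 and 0.419, n = 6). Within controls r was -0.01 and within homozygous libraries it was 0.00 (exact permutation p = 0.989 and 0.990, n = 6 each). Over these 3 relations the lowest Benjamini-Hochberg adjusted exact permutation p was 0.442. Leaving out the 2 libraries most distant from the median *Ppara* level, r became -0.42 among controls, 0.76 among heterozygous mice and -0.86 among homozygous mice, so no relation held across the genotypes. The genotypes differ in *Ppara* by construction, and no pooled value is given.

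The 3 neighbours on chromosome 11 differed from each other within the same libraries, where sequencing depth cancels. The CPM of *Slc22a5* divided by that of *Slc22a4* averaged 2.76 ± 0.65 in controls (mean ± SD, n = 6), 3.62 ± 0.55 in heterozygous libraries and 4.87 ± 0.60 in homozygous libraries. The ratio ran from 1.97 to 3.76 in controls, 2.81 to 4.42 in heterozygous and 4.12 to 5.88 in homozygous libraries. Control and homozygous libraries did not overlap in it. Relative to *Slc22a21*, *Slc22a5* averaged 3.70 ± 0.49 times among controls, 4.76 ± 0.38 among heterozygous libraries and 5.55 ± 0.75 among homozygous libraries. Here the lowest homozygous library (4.56) lay just above the highest control (4.51), and the lowest heterozygous library (4.38) lay below it. These ratios use the comparison that was known when the genes were chosen, and are given without a test.

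**Figure D4:**
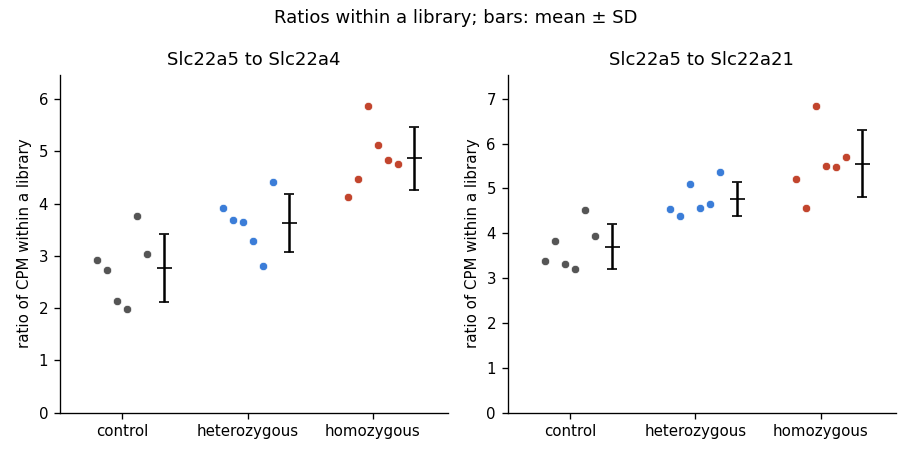
Ratio of the CPM of *Slc22a5* to that of *Slc22a4* (left) and of *Slc22a21* (right), 1 point per library, with the mean ± SD of each genotype. The homozygous points lie above the control points in both panels, with the narrower gap for *Slc22a21*.

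The other genes around *Slc22a5* had no shared direction. Of the 6 protein-coding genes within 300 kb of it that passed the filter and are no members, 3 had higher values in homozygous mice, with log2 fold changes from -0.28 to 0.43 and adjusted p of 0.658 or more (edgeR). *Irf1*, an interferon-induced transcription factor, gave -0.28 (SE 0.18) and *P4ha2*, a collagen prolyl hydroxylase, 0.43 (SE 0.23). In heterozygous mice 2 of the 6 had higher values, with log2 fold changes between -0.30 and 0.11. Within 300 kb of *Slc22a3*, *Agpat4*, *Map3k4* and *Igf2r* gave log2 fold changes of 0.05 (SE 0.11), -0.01 (SE 0.07) and 0.07 (SE 0.11) in homozygous mice. Around *Slc22a18*, 2 of 7 genes had higher values in homozygous mice (log2 fold changes from -0.20 to 0.16), and around *Slc22a23* 6 of 8 (from -0.20 to 0.14), with none called by edgeR (adjusted p of 0.616 or more).

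**Figure D5:**
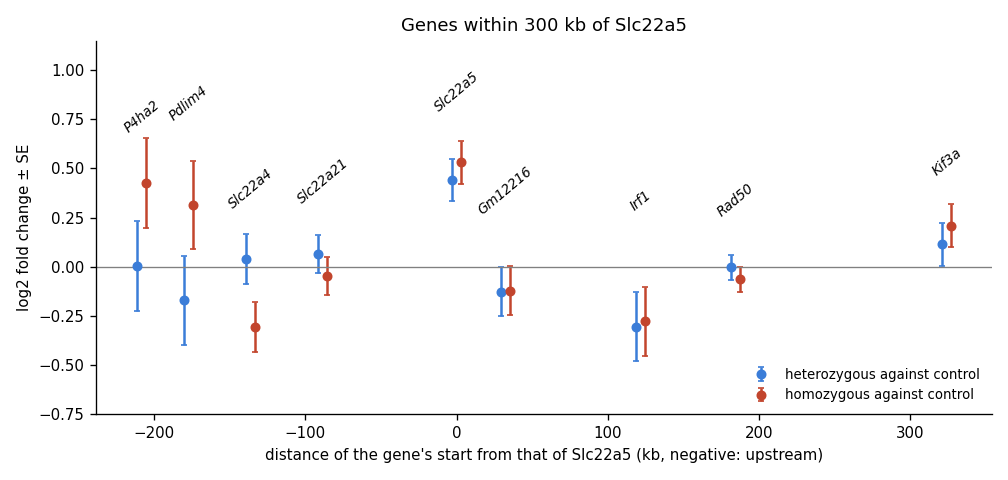
Log2 fold change ± SE of the genes within 300 kb of *Slc22a5* against the distance of their start from its start, for heterozygous (blue) and homozygous (red) mice against controls. *Slc22a5* lies at 0.44 and 0.53, above its neighbours *Slc22a21* and *Slc22a4*.

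Reads were counted where they align to 1 place, so copies that resemble each other bear on these values. The longest open reading frames of *Slc22a5* and *Slc22a21* (1674 and 1695 bases) are identical at 90.5% of 1674 aligned bases, and their longest identical stretch is 157 bases. *Slc22a4* is 77.7% identical to *Slc22a5* (longest stretch 54 bases) and 75.8% to *Slc22a21* (61 bases). *Slc22a3* shares no stretch over 12 bases with any other member. How many reads of the trio fell to multiple places was not tested. Whether strand was used in counting is not given in the sources used here. The genes that overlap *Slc22a3* on the other strand, *Plg* and *C030013G03Rik*, averaged 0.31 and 0.14 CPM. A processed pseudogene inside *Slc22a21*, *Gm12219*, averaged 0.53 CPM.

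Between females and males, a contrast the choice of members did not use, the 6 members differed by little. With genotype in the fit, the log2 difference (female minus male) ran from -0.07 for *Slc22a5* to 0.09 for *Slc22a21*, with SE from 0.07 to 0.19. No member was called by edgeR, DESeq2 or limma-voom, none had an unadjusted p under 0.05 by any of the 3, and the lowest adjusted p by edgeR was 0.998, where 0.0554% of all genes were called and 3.39% had an unadjusted p under 0.05. The 95% confidence intervals were widest for *Slc22a3* (0.76 to 1.32 times) and on the log2 scale reached from -0.26 to 0.13 for *Slc22a5*, so differences inside these bounds could not be resolved with 7 females and 11 males.

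Members were compared with the tissue scores over the 18 libraries, 18 relations in all. With the smooth muscle score, *Slc22a4* and *Slc22a21* each had Pearson's r = -0.53 and Spearman's rho = -0.56 and -0.46 (100000 permutations, p = 0.0198 and 0.0218 for r, 0.0180 and 0.0546 for rho). The Benjamini-Hochberg adjusted permutation p was 0.196 for both, the lowest of the 18. For *Slc22a4* r was -0.22, -0.59 and -0.29 within controls, heterozygous and homozygous libraries, and for *Slc22a21* it was -0.46, -0.56 and -0.54. Leaving out the 2 libraries most distant from the median score gave -0.52 and -0.40. With TMM-scaled values r was -0.59 and -0.60, with adjusted permutation p of 0.0557 and 0.0449, and below 0 within every genotype for both genes. *Slc22a3* had r = 0.63, -0.48 and 0.71 with this score within controls, heterozygous and homozygous libraries and 0.30 over all 18 (permutation p = 0.232). All 10 smooth muscle markers had higher values in homozygous than in control mice, with a median log2 fold change of 0.57, and none was called or had an unadjusted p under 0.05 by edgeR, DESeq2 or limma-voom. All 6 fibroblast markers had higher values too, with a median of 0.36, none called and 1 at an unadjusted p under 0.05 by each tool. With the smooth muscle score in the fit, *Slc22a3* gave 1.148 (edgeR, adjusted p = 0.0212), *Slc22a4* -0.21 (unadjusted p = 0.105) and *Slc22a5* 0.61 (adjusted p = 0.00849) in homozygous against control mice.

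With the enterocyte score, *Slc22a3* had r below 0 within each genotype and near 0 over all libraries. Pearson's r was -0.82 within controls, -0.56 within heterozygous and -0.85 within homozygous libraries, as a description with 6 libraries each, and -0.09 over all 18 (permutation p = 0.728). With TMM-scaled values it was -0.72, -0.35 and -0.82 within the genotypes and 0.11 over all. The TMM-scaled enterocyte score holds only the 9 of its 10 markers above the filter. Scaling and marker set thus changed together in every TMM-scaled value of this score, and their parts were not tested. *Slc22a18* had r = 0.43 with this score over all 18 libraries (permutation p = 0.0744, adjusted permutation p = 0.335), which became 0.75 (adjusted permutation p = 0.0067) with TMM-scaled values, where it was 0.83, 0.43 and 0.88 within the genotypes. Both sides of such a relation share library, depth and scaling. The score also holds genes that differ between the genotypes. Of its 9 markers above the filter, 6 had higher values in homozygous mice than in controls, and each of the 3 tools called *Fabp2*, the intestinal fatty acid binding protein (log2 fold change 0.94, edgeR, adjusted p = 0.00116). *Apoa4*, an apolipoprotein, gave 1.31 in homozygous and 1.29 in heterozygous mice and was not called by edgeR. *Slc22a5* gave 0.14, 0.33 and -0.39 within the genotypes and 0.33 over all (permutation p = 0.177). With TMM-scaled values it gave 0.44, 0.63 and -0.44, and 0.58 over all (permutation p = 0.0126, adjusted permutation p = 0.0565).

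Against the B cell score, *Slc22a5* had r = -0.46 over all 18 libraries (permutation p = 0.0515, adjusted permutation p = 0.309), -0.12 with the 2 libraries most distant from the median score left out, and -0.49, -0.53 and 0.39 within controls, heterozygous and homozygous libraries. With TMM-scaled values, r of *Slc22a5* was -0.50 over all 18 (permutation p = 0.0319, adjusted permutation p = 0.0821). Within controls, heterozygous and homozygous libraries it was -0.44, -0.63 and 0.38. All 8 B cell markers had lower values in homozygous than in control mice, with a median log2 fold change of -3.11. None was called by edgeR, DESeq2 or limma-voom, with 8, 8 and 0 at an unadjusted p under 0.05. With the B cell score in the fit, *Slc22a5* had a log2 fold change of 0.47 and *Slc22a3* of 1.18 in homozygous against control mice, beside 0.53 and 1.19 without it.

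The genes whose pattern over the 18 libraries was most like that of *Slc22a3* included *Hsdl2* (Pearson's r = 0.92) and *Acacb*, an acetyl-CoA carboxylase (0.91). For *Slc22a5* they were *Aldh3a2*, a fatty aldehyde dehydrogenase (0.91), *Crot*, the peroxisomal carnitine octanoyltransferase (0.91), and *Tgoln1* (0.91). For *Slc22a4* they were *2010106E10Rik* (0.85), *Nat8* and *Cyp2c68* (0.82 each), for *Slc22a21* *Col4a3* (0.88), *Btnl1* (0.84) and *Slc5a6* (0.82). *Slc22a18* was most like *Mgst3* (0.87), *Mvp* (0.87) and *Acaa1a* (0.86), and *Slc22a23* most like *Atg9a* (0.87), *Ctnnb1* (0.87) and *Hnf4g* (0.84). These likenesses were picked as the highest of all tested genes, and the libraries share genotype and tissue makeup.

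Around carnitine, 9 of 12 listed genes of its synthesis, shuttle and other carriers passed the filter. Of these, 8 had higher values in homozygous mice and 7 in heterozygous mice, as had 6083 and 6003 of all 12645 genes. By edgeR 6 and 5 of the 9 had an unadjusted p under 0.05, beside 8.06% and 5.29% of all genes. In each comparison 1 was called, beside 0.411% and 0.293% of all genes. The list was chosen with earlier results of these data known, so nothing is read from that excess. *Slc25a20*, the carnitine-acylcarnitine translocase of mitochondria, was the 1 called by edgeR and by limma-voom in each comparison, with log2 fold changes of 0.78 (SE 0.09, edgeR, adjusted p = 3.68e-05) in homozygous and 0.63 (SE 0.08, adjusted p = 0.000784) in heterozygous mice. *Crot* gave 0.50 (SE 0.11, edgeR, adjusted p = 0.0549) and 0.45 (SE 0.11, adjusted p = 0.136), and DESeq2 called it in both (adjusted p = 0.0026 and 0.0153). *Cpt1a* and *Cpt2*, the carnitine palmitoyltransferases of the outer and inner mitochondrial membrane, gave 0.24 (SE 0.10) and 0.26 (SE 0.09) in homozygous mice, with adjusted p of 0.577 and 0.399. *Slc6a14*, an amino acid carrier that also takes up carnitine, had the largest values of the list, 2.09 (SE 0.78, unadjusted p = 0.0148, adjusted p = 0.470, edgeR) in homozygous and -1.01 (SE 0.77) in heterozygous mice, with 0.48 to 44.7 CPM among controls alone. *Tmlhe*, the first enzyme of carnitine synthesis, gave -0.01 (SE 0.11). The median of the 9 was 0.26 in both comparisons, beside -0.00 and -0.01 over all genes. *Slc22a5* at 0.53 lay between *Crot* and *Slc25a20*.

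Of 11 listed carriers of organic cations, choline and thiamine, 8 passed the filter, 4 had higher and 4 lower values in homozygous mice, and edgeR, DESeq2 and limma-voom called none, with 3, 3 and 2 at an unadjusted p under 0.05, beside the 8.06% of all genes by edgeR. *Slc47a1*, the proton antiporter MATE1, gave 0.37 (SE 0.13, adjusted p = 0.445) in homozygous and 0.51 (SE 0.13, adjusted p = 0.207, edgeR) in heterozygous mice, where DESeq2 called it (adjusted p = 0.0374). *Slc29a4*, the plasma membrane monoamine transporter, gave 0.32 (SE 0.12) and -0.11 (SE 0.12). *Slc6a4*, the serotonin transporter, gave -0.23 (SE 0.11) and -0.04 (SE 0.11). The median of the 8 was 0.01 in homozygous mice. This list too was chosen with earlier results known, and nothing is read from its counts beside those of all genes. None of the 4 PDZ scaffolds that hold carriers such as OCTN2 at the brush border was called in homozygous mice by any of the 3 tools, and none had an unadjusted p under 0.05. Their log2 fold changes ran from -0.13 for *Pdzk1* to 0.07 for *Slc9a3r2*.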

How the data were processed

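RNA of whole-thickness ileum from 18 mice was read as poly-A libraries. Per the labels and the study's methods, the authors aligned reads with STAR to GRCm38 and took counts of uniquely and unambiguously aligned reads per gene with featureCounts. The deposited CPM values are these counts scaled to library totals, and the deposited FPKM values also to gene length. The deposited log2 CPM values carry a small prior of unstated size and served 1 alternative fit.

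The members and gene lists were chosen with earlier results of these data known. Counts of 12645 protein-coding genes above 3 CPM in at least 4 libraries (3 CPM is 116 counts in the shallowest library) were fitted with edgeR 4.0.16 in R 4.3.3, as a quasi-likelihood model with TMM factors over all 18 libraries and genotype as the term, and p-values were adjusted by Benjamini-Hochberg over all of them. The fit was tested on simulated data. Sex was tested with genotype in the fit. DESeq2 1.42.0 and limma 3.58.1 served as alternatives, with other scalings, filters, covariates and left-out libraries. Tissue scores are means of log2 CPM with a prior count of 2, and their relations used 100000 permutations, two-sided. Levels between genes use CPM per kilobase. Named genes were the members, the other family genes, fixed lists, neighbours within 300 kb and the 3 genes of highest r. Each library is 1 mouse. Some genes under these rules are not reported here.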

Additional observations from a re-analysis of the deposited data

Results flagged for a closer look

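In the CPM of the 6 members, over 18 groups of 6 libraries, no single library passed the outlier limit given next. Gaps below that limit were present, as for *Slc22a23* in control replicate 4, at 95.8 CPM beside 122 CPM in the next lowest control. Among 42 such groups, tissue scores included, 5 had a highest or lowest library whose gap to the next was larger than 0.625 of the group's range (Dixon's limit for 6 values), where chance gives about 1 group in 20. In the mean log2 CPM of 8 B cell markers these were heterozygous replicate 2 at 5.12 and homozygous replicate 1 at 3.30. In that of 10 smooth muscle markers they were control replicate 6 at 5.01, heterozygous replicate 3 at 5.32 and homozygous replicate 3 at 8.80. In these libraries *Slc22a5* stood at 90.9, 122, 93.2, 130.3 and 128.8 CPM and *Slc22a3* at 10.3, 8.00, 2.54, 11.9 and 11.9 CPM. Heterozygous replicate 3 was thus the highest of its group for both genes.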

How the results depend on the processing

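Of 894 alternative values over 52 results, 808 kept their direction and their side of the threshold, or their size where there was no test. The relations of *Slc22a5* with *Ppara* had no alternative. *Slc22a5* in homozygous mice lost its call with sex in the fit (0.52), without the 4 libraries of highest B cell score (0.47) and with that score in the fit (0.47), and in 9 of 18 fits without 1 library. Over all 18 such fits its value ran from 0.48 to 0.60, with adjusted p from 0.00948 to 0.0978. In heterozygous mice *Slc22a5* gained a call with DESeq2 (0.44) and in 1 of 18 fits without 1 library (0.39 to 0.51). *Slc22a3* lost its call in homozygous mice without the 4 libraries (1.18; 1.103 to 1.36 without 1 library), and in heterozygous mice with library size (1.09), with the 12 libraries compared (1.12), with a replicate block (1.13, edgeR, adjusted p = 0.123) and without the 4 libraries (1.03), and ran from 1.02 to 1.29 without 1 library. DESeq2 called 136, 82 and 9 genes for homozygous and heterozygous mice against controls and homozygous against heterozygous mice, where edgeR called 52, 37 and 1. Without the 4 libraries both counts against controls fell, to 30 and 15, and that of heterozygous mice to 23 with the 12 libraries compared and 22 with the replicate block. Between homozygous and heterozygous mice it was 0 with DESeq2 size factors, no filter, all biotypes, the 12 libraries compared, sex, the block, the 4 libraries left out or either score in the fit. Without 1 library the 3 counts ran from 43 to 65, 25 to 55 and 0 to 2. Leaving out the 4 libraries and fitting either tissue score were chosen after seeing the data. The causes were not tested.

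Log2 fold changes whose sign turned were near 0. With the smooth muscle score in the fit *Slc22a18* in homozygous against heterozygous mice was at 0.027, and in homozygous mice against controls *Slc22a21* was at 0.041 and *Slc22a23* at 0.047, which was at 0.054 without the 4 libraries. *Slc22a3* in females against males was at 0.0044 with no filter, and *Slc22a4* in heterozygous mice at -0.0063 with limma on the deposited log2 CPM. Without 1 library, the female against male values ran from -0.010 to 0.067 for *Slc22a18*, -0.062 to 0.030 for *Slc22a23*, -0.12 to 0.092 for *Slc22a3* and -0.12 to 0.0098 for *Slc22a4*. Those of heterozygous mice against controls ran from -0.010 to 0.12 for *Slc22a23* and -0.056 to 0.10 for *Slc22a4*, those of homozygous mice against controls from -0.089 to 0.0052 for *Slc22a21* and -0.11 to 0.027 for *Slc22a23*, and *Slc22a3* in homozygous against heterozygous mice from -0.015 to 0.17. With TMM-scaled values, r turned sign for *Slc22a5* with the smooth muscle score (-0.036) and for *Slc22a3* with the enterocyte score (0.11). It kept its sign and passed the threshold for *Slc22a21* with the smooth muscle score (-0.60) and *Slc22a18* with the enterocyte score (0.75). For the enterocyte score this setting also left 9 of the 10 markers, so scaling and marker set changed together.

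Replicate numbers did not pair the libraries: deviations of same-numbered libraries correlated from -0.61 to 0.64. With the replicate block *Slc22a5* in homozygous mice was at 0.54 (edgeR, adjusted p = 0.0322). *Slc22a3* rests on the fewest reads of the members, no more than 563 a library.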
